A study of Mus musculus with 4 samples.

Results

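Cells that met a transcript gate for cycling cells of the third double-negative stage (DN3) were examined in thymus suspensions. These were profiled by droplet single-cell RNA sequencing (10x Genomics, 3′ ends), and 1 preleukemic Tal1/Lmo2 thymus was compared with 2 Tal1/Lmo2 leukemias, T-ALL#1 and T-ALL#2. A cell was taken as cycling DN3 when it had 0 unique molecular identifiers (UMIs, one per captured transcript) of Cd4, Cd8a, Cd8b1 and Cd44, at least 1 UMI of Il2ra, and at least 3 UMIs per 10000 summed over Mki67, Top2a, Pclaf, Rrm2, Tyms and Birc5. The cells were thus chosen by these measured values, so the levels of the 11 gate genes are given as a description and were not tested. The name cycling DN3 stands for this gate and does not settle the stage or lineage of a cell. The gate held 368 of the 13324 cells kept in the 3 transgenic libraries (17544 cells with the wild-type library): 113 preleukemic cells, 104 of T-ALL#1 and 151 of T-ALL#2.

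All mice were FVB/N, and the Tal1 and Lmo2 transgenes of the preleukemic and leukemic mice were both driven by the proximal Lck promoter, which is active in early thymocytes. The labels give the wild-type and preleukemic thymi as taken from males at 6 weeks, T-ALL#1 from a female at 3 months and T-ALL#2 from a male at 3 months. Each library is 1 thymus, so disease stage, age and mouse cannot be told apart. The wild-type library held 10 cells in the gate and was not compared.

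A DN3 thymocyte has lost Cd44, carries Il2ra (the α chain of the interleukin-2 receptor, CD25) and rearranges its T cell receptor genes. At this stage Notch1 signaling sustains the cell, and a productive β chain paired with pTα (encoded by Ptcra) forms the pre-T cell receptor, after which the cell divides and moves to the CD4+CD8+ double-positive stage. E proteins (Tcf3, Tcf12) drive this program. TAL1 is a basic helix-loop-helix factor that pairs with E proteins and, through the bridging proteins LMO2 and LDB1, is found with GATA and RUNX factors at enhancers of stem and progenitor genes. Gain of Notch1 activity is a recurrent event in T cell leukemia, and DN3 cells are known to hold leukemia-initiating activity in this model.

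Some features of the libraries stand apart and touch each comparison. The kept cells had median depths of 4888 UMIs in the preleukemic, 8742 in the T-ALL#1 and 17581 in the T-ALL#2 library. T-ALL#2 was deposited with all of its barcodes, and cells there were those with at least 3416 UMIs. The libraries labelled wild type and preleukemic did not match their labelled sex: the cycling DN3 cells of the library labelled preleukemic and male had 1313 CPM (UMIs per 1000000 summed UMIs) of Xist and 0 UMIs of 4 Y-linked genes, against 1732 CPM and 0 UMIs in T-ALL#1, and 0 CPM and 409 UMIs in T-ALL#2. By these transcripts T-ALL#2 was male and the other libraries compared were female, so its sex and mouse cannot be told apart. Values of the wild-type library are not given, and whether samples or labels were exchanged was not tested. Any 2 of the 3 transgenic libraries shared between 3 and 5 barcodes, at most 0.253% of the cells of a library.

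Cycling DN3 cells were 2.03% of the kept cells in the preleukemic thymus (exact 95% binomial interval 1.67 to 2.43), 1.80% in T-ALL#1 (1.47 to 2.18) and 7.65% in T-ALL#2 (6.51 to 8.91). Within the cells that met the surface-gene conditions alone they were 31.8% of 355, 70.3% of 148 and 66.2% of 228. These intervals cover counting error only, and no test across mice was possible with 1 preleukemic library. Thinning every cell to 3000 UMIs before gating gave 1.93%, 4.07% and 14.2% (4608, 5326 and 1975 cells were deep enough), so the share of T-ALL#1 lay below that of the preleukemic thymus at full depth and above it at equal depth. Thinning also removes UMIs of Cd4, Cd8a, Cd8b1 and Cd44, so cells that carry them can enter the gate. The cells that met the surface-gene conditions then numbered 242, 299 and 400. The part of lost Cd4 or Cd8 UMIs in the equal-depth order was not tested.

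At the threshold of 3 per 10000, 14 preleukemic cells, 3 of T-ALL#1 and 7 of T-ALL#2 lay between 3 and 4, and 24, 2 and 13 cells outside the gate lay between 2 and 3. The median of the summed cycling genes was 13.6, 29.2 and 14.8 UMIs per 10000. Mki67, a marker of dividing cells, stood at 330, 536 and 186 CPM, Pclaf, a partner of the replication clamp, at 584, 886 and 716 CPM, and Il2ra at 218, 172 and 202 CPM. A single UMI of Il2ra admitted 37, 35 and 25 of the cells. No Il2ra UMI was counted in the 13, 6 and 6 B or myeloid cells of the libraries (median 3933 to 4659 UMIs), a number too small to set a background.

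The gate took a different part of the dividing Il2ra+ cells in each library. Of 189 such cells in the preleukemic thymus 59.8% passed the 0-UMI conditions, of 1751 in T-ALL#1 5.94% and of 838 in T-ALL#2 18.0%. In T-ALL#1, 83.8% of the dividing Il2ra+ cells had a Cd8a UMI and 43.7% a Cd4 UMI, in T-ALL#2 60.1% and 12.1%, and in the preleukemic thymus 22.2% and 2.65%. The cells that passed were not shallow: their median was 24750 UMIs against 18280 for those that did not pass in T-ALL#1, and 25512 against 24655 in T-ALL#2. Whether a gated leukemic cell lacked Cd8a or only gave no UMI of it cannot be told apart here. Among the genes described below, some were at like levels in the dividing Il2ra+ cells outside the gate and others were not. Gm266 was at 310 CPM outside against 341 CPM inside the gate in T-ALL#1 and at 229 against 207 CPM in T-ALL#2, and Hes1 at 149 against 137 and 101 against 88.1 CPM. In the preleukemic thymus Cpa3 was at 147 CPM outside against 433 CPM inside, Lyl1 at 7.73 against 38.7 CPM and Ptcra at 20.4 against 6.67 CPM. In T-ALL#1 Ptcra was at 158 CPM outside against 80.2 CPM inside, Rag1 at 103 against 42.1 CPM and Tcrg-C2 at 67.3 against 176 CPM.

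Some markers of T cells were present in nearly every gated cell. Cd3g, a chain of the CD3 complex, had a UMI in 113 of 113 preleukemic, 103 of 104 T-ALL#1 and 150 of 151 T-ALL#2 cells, and Dntt, the terminal transferase of early lymphocytes, in 110, 101 and 144. Of the 15 DN3 markers tested besides the gate genes 1 was called higher (Hes1) and 0 lower, with a median fitted log2 change of 0.46. Over all genes tested, 0.381% were called higher. Several other markers on the list were scarce, and not in the preleukemic cells alone. Ptcra had a UMI in 8.85% of preleukemic, 46.2% of T-ALL#1 and 14.6% of T-ALL#2 cells, and Notch3 in 17.7%, 47.1% and 25.2%. Rag2 had one in 7.96%, 0.962% and 3.31%, Spib in 8.85%, 1.92% and 0%, and Cd7 in 1.77%, 5.77% and 1.32%. Transcripts of other cells were counted for 6 lists, and their part in the results was not tested. The 8 B cell genes summed to 66.7, 125 and 51.4 CPM, the 14 myeloid and dendritic genes to 89.4, 87.3 and 78.9 CPM with Csf1r at 0 in each, and the 6 erythroid genes to 0, 0.397 and 0.264 CPM. The 10 natural killer genes summed to 574, 920 and 1399 CPM, nearly all of it from Gzma, with 7, 7 and 6 of the 10 at 0. The 8 stromal and epithelial genes summed to 579, 239 and 154 CPM, carried by Vim, and the 8 genes of mature T cells to 291, 271 and 314 CPM.

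Summed over the gated cells of each library (2249511, 2520065 and 3790703 UMIs), 9707 genes were tested for leukemic against preleukemic cells with edgeR's quasi-likelihood test, and 96 passed a Benjamini-Hochberg adjusted p of 0.05 (0.989% of genes tested). Of these 37 were higher in the leukemias (0.381%) and 59 lower (0.608%). The lone preleukemic library was assumed to vary like the 2 leukemias, and 1 residual degree of freedom was left. Taken as a ratio of each leukemia to the preleukemic library, 903 genes (9.30%) lay past 2-fold in the same direction in both leukemias with counting intervals that excluded 1, 289 of them higher (2.98%) and 614 lower (6.33%). Taken alone, T-ALL#1 had 5.49% of genes past 2-fold higher and 8.39% lower, and T-ALL#2 had 4.67% and 17.1%. All 96 called genes were among them. The number of calls moved with the settings, from 683 when all genes with at least 1 UMI were tested to 16 without the cells with a Trdc UMI, which left 4 preleukemic cells. That setting tested 7694 genes and kept 6 of the 96 calls, so most genes called below were not called in it. Among the genes named by rule and tested in it, the calls of Heyl, Hes1, Trac, Wdr25, Agfg1, Tcrg-C2, Mcub, Bcl2, Hist1h2ap and Dqx1 ended. Scaling by TMM factors moved all genes of T-ALL#2 up by 0.32 and of T-ALL#1 by 0.07 on the log2 scale against the preleukemic library. The fitted changes below include that shift, and the median over all genes tested was 0.01. The CPM values do not include it, and the median of their log2 ratios was -0.06 for T-ALL#1 but -0.33 for T-ALL#2.

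**Figure D1:**
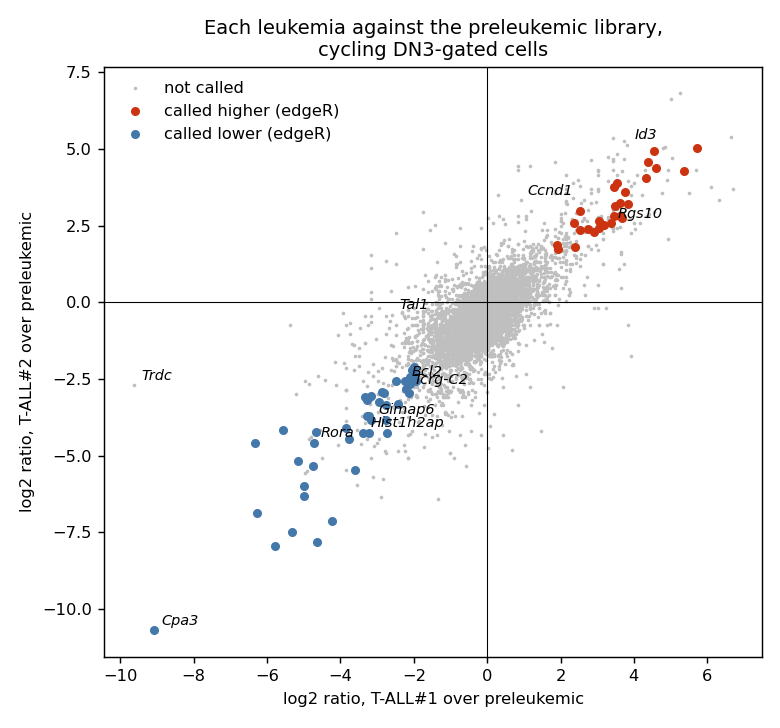
Log2 ratio of CPM for T-ALL#1 (horizontal) and T-ALL#2 (vertical) over the same preleukemic library, 1 point for each of 9480 genes with a UMI in all 3 libraries; 27 of the 37 genes called higher and 44 of the 59 called lower are drawn in colour. Called genes lie in the upper right and lower left corners, and Trdc lies far lower in T-ALL#1 than in T-ALL#2; both axes share the preleukemic values.

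Gm266 led the higher and Cpa3 the lower genes when each gene was ranked by the smaller of its ratios in the leukemias. Gm266 (ENSMUSG00000010529, chr12:111484609-111485823, minus strand, GRCm38) is a predicted gene placed in the Notch target list used here. Cpa3 (ENSMUSG00000001865, chr3:20215620-20242181, minus strand) encodes carboxypeptidase A3, a protease of mast cells and of early hematopoietic progenitors. The reference promoters of both (RefSeq, GRCm38.p6, 300 bases around the start) are shown because these 2 genes led that ranking among genes of at least 100 CPM, with 3 motifs in capitals wherever they occur on either strand. CAGCTG is a form of the E-box that basic helix-loop-helix factors bind, the motif of GATA factors was searched as AGATAA, and TGGGAA is the core of the motif of RBPJ, the DNA-binding partner of Notch.
Cpa3 (chr3:20242132-20242431, minus strand): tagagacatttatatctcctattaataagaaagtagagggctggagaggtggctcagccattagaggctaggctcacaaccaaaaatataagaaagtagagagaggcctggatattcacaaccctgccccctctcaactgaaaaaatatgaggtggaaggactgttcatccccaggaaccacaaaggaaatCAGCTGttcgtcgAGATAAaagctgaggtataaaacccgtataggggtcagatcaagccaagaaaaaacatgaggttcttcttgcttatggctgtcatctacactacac
Gm266 (chr12:111485774-111486073, minus strand): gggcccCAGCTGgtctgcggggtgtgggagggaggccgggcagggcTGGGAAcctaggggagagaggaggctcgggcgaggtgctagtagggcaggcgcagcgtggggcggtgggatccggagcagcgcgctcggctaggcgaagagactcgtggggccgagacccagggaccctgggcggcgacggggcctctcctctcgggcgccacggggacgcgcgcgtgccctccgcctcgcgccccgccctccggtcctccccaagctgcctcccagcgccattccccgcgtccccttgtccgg
The Cpa3 window held 1 CAGCTG and 1 AGATAA and no TGGGAA. The Gm266 window held 1 CAGCTG and 1 TGGGAA and no AGATAA. Among 32851 mouse promoters of the same length, 16.3% held CAGCTG, 11.2% AGATAA and 25.6% TGGGAA, and a match of letters is not evidence of binding.

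A part of the Notch targets was higher in the leukemic cells. Of the 16 tested members of the list of Notch receptors and targets, 3 were called higher and 0 lower, 7 were past 2-fold higher in both leukemias, and the median fitted log2 change was 1.97. Of all genes tested, 0.381% were called higher and 2.98% were past 2-fold higher in both. The list, with Gm266 in it, was chosen with earlier results of these data known. A gene high in the leukemias only can also pass the filter on low counts through them, and the called Gm266 and Heyl had 0 preleukemic UMIs. The counts of the list are thus a description. With genes at 0 UMIs held at the value of 3 UMIs, T-ALL#1 had a median log2 ratio of 1.39 and T-ALL#2 one of 0.62. Gm266 had 0 UMIs in the 113 preleukemic cells, which allows up to 1.64 CPM at the 95% limit. It stood at 341 CPM (319 to 365) in T-ALL#1, and T-ALL#2 had 207 CPM (192 to 222), at least 256-fold and 155-fold higher than the preleukemic library taken at 3 UMIs. It had a UMI in 98 of 104 and 144 of 151 leukemic cells (edgeR adjusted p = 0.0135). Barcodes of T-ALL#2 far below the cell limit, taken as RNA outside cells, held it at 186 CPM. The part of such RNA in the T-ALL#2 cells with a Gm266 UMI was not tested. Heyl, a Hes-family repressor, had 0 preleukemic UMIs and reached 27.0 and 24.5 CPM in the leukemias, at least 20.2-fold and 18.4-fold higher (adjusted p = 0.0243).

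Hes1 (chr16:30064384-30067796), the repressor that Notch induces in thymocytes, was at 12.4 CPM (8.27 to 18.0) in preleukemic cells, and T-ALL#1 had 137 CPM (122 to 152) and T-ALL#2 88.1 CPM (78.9 to 98.1). Its fitted log2 change was 3.34 (SE 0.359, adjusted p = 0.0243), and it had a UMI in 12.4%, 77.9% and 72.8% of the cells. Thinned to 5000 UMIs per cell the shares were 6.60%, 37.0% and 31.8%, so both leukemias kept the higher share at equal depth. Dtx1, a Notch-induced ubiquitin ligase, was at 17.3, 187 and 85.7 CPM but missed the threshold (adjusted p = 0.0595), as did Nrarp, a feedback inhibitor of Notch, with 1, 58 and 34 UMIs (adjusted p = 0.0995). The receptors were closer to each other. Notch1 stood at 216, 341 and 224 CPM (log2 change 0.56, adjusted p = 0.517) and Notch3 at 11.1, 28.6 and 12.7 CPM, with T-ALL#2 in both cases near the preleukemic level. Myc, a growth regulator and Notch target, was at 88.5, 68.3 and 54.3 CPM (adjusted p = 0.642), and Notch2 had the lowest fitted change of the list, -1.06.

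**Figure D2:**
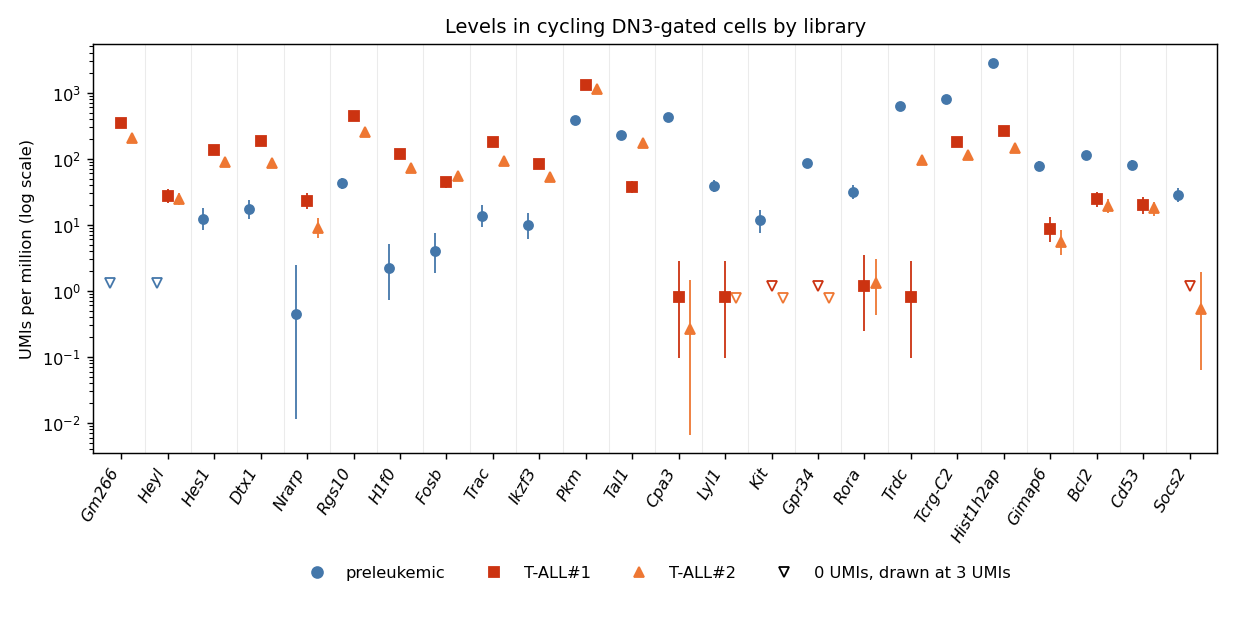
Levels in cycling DN3 cells of the preleukemic (circles), T-ALL#1 (squares) and T-ALL#2 (triangles) libraries for 24 genes, in CPM on a log axis with exact 95% Poisson intervals (counting error only); open triangles mark 0 UMIs and sit at the value of 3 UMIs. From Gm266 to Pkm both leukemias lie above the preleukemic library, and from Cpa3 to Socs2 both lie below it, while Tal1 is lowest in T-ALL#1, with T-ALL#2 near the preleukemic level.

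The Tal1 complex held 1 called gene. Of 15 tested members, which include the E proteins and their Id inhibitors, 0 were called higher and 1 lower, and the median fitted change was -0.33. Over all genes tested, 0.608% were called lower. Tal1 itself was at 228 CPM (209 to 249) in preleukemic, and T-ALL#1 had 37.7 CPM (30.5 to 46.1) against 173 CPM (160 to 187) in T-ALL#2, with a UMI in 103 of 113, 45 of 104 and 142 of 151 of them. T-ALL#1 was thus 6.05-fold and T-ALL#2 1.32-fold below the preleukemic library, and the groups did not differ in the fit (adjusted p = 0.826). Lmo2 had UMIs in 4, 0 and 0 cells. Whether the transgene transcripts carry the 3′ ends that the libraries count is not given in the sources used here, so these counts do not check transgene expression. Tcf12 (322, 379 and 326 CPM), Tcf3 (122, 92.1 and 64.1 CPM), Gata3 (73.3, 115 and 93.7 CPM) and Runx1 (275, 211 and 158 CPM) were not called. Id1 and Id3, inhibitors of E proteins, were at 1.78, 19.0 and 73.6 CPM and at 4.00, 56.3 and 141 CPM. Both were higher in each leukemia, but the leukemias differed from one another and neither was called (adjusted p = 0.397 and 0.199).

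The called member was Lyl1, a close relative of Tal1. It had 87 UMIs in preleukemic cells (38.7 CPM), and 2 and 0 in the leukemias (adjusted p = 0.0272), a log2 ratio of -5.61 in T-ALL#1 (-8.68 to -3.71) and a level at least 48.9-fold lower in T-ALL#2. DESeq2 did not call Lyl1 (log2 change -6.59, adjusted p = 0.511). Lyl1 also belongs to the list of progenitor and self-renewal factors, of which 7 of 21 passed the filter on low counts. All 7 had their highest level in the preleukemic cells, 2 were called lower and none higher, against 0.608% of all genes tested called lower. Since a gene high in 1 group only can pass the filter through that group, this count is a description. The median log2 ratio of the 7, with genes at 0 held at 3 UMIs, was -3.56 in each leukemia. Cpa3 had 975 UMIs in 88 of 113 preleukemic cells, and 2 and 1 UMIs in the leukemias, which is 433, 0.794 and 0.264 CPM (adjusted p = 0.00200). T-ALL#1 had a log2 ratio of -9.09 (-12.14 to -7.24) and T-ALL#2 one of -10.68 (-15.99 to -8.20), and a single preleukemic cell held at most 66 UMIs. In preleukemic cells with both Cd4 and Cd8a UMIs, Cpa3 had a UMI in 24.9% at a median depth of 6574 UMIs, against 77.9% of the cycling DN3 cells at 19762. Kit, the stem cell factor receptor, had 26, 0 and 0 UMIs (adjusted p = 0.111), Erg 16, 0 and 0 (adjusted p = 0.212), and Hhex, a homeobox gene of progenitors, 20, 1 and 0 (adjusted p = 0.180).

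Of 9 genes that the study names as TAL1 and LMO2 targets, 4 were called lower and 0 higher, with a median fitted change of -1.92. Of all genes tested 0.608% were called lower. The study worked with these samples when it chose the list, so the count is not independent evidence of its direction. The called genes were Cpa3, Gimap6, Gimap7 and Cd53. Gimap6, a GTPase of lymphocyte survival, was at 78.2, 8.73 and 5.54 CPM (log2 change -3.29, SE 0.318, adjusted p = 0.0243) and Gimap7 at 34.7, 3.57 and 2.64 CPM (adjusted p = 0.0290). Cd53, a leukocyte tetraspanin, was at 81.4, 19.8 and 17.7 CPM (adjusted p = 0.0393). Gimap4 and Trib2 had the opposite sign without a call, with 15.6, 46.4 and 26.1 CPM and 18.2, 45.6 and 34.0 CPM. Within the 8 Gimap genes 2 were called lower, the median was -1.58, and Gimap4 and Gimap5 lay above 0.

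T cell receptor transcripts separated all 3 libraries. Trdc (chr14:54142851-54148868), the constant region of the δ chain, was at 623 CPM (591 to 656) in the preleukemic cells, with a UMI in 109 of 113. In T-ALL#1 it had 2 UMIs in 1 of 104 cells, and in T-ALL#2 it stood at 95.5 CPM (85.9 to 106) with a UMI in 112 of 151. Both leukemias were lower, by a log2 ratio of -9.62 (-12.66 to -7.76) and -2.71 (-2.88 to -2.54), but they differed so far from each other that the fit made no call (adjusted p = 0.725). At 5000 UMIs per cell the shares with a UMI were 83.0%, 0% and 29.8%. Trdc was also found in 73.6% of the preleukemic cells that had both Cd4 and Cd8a UMIs (median 6574 UMIs), in 0 of 2408 such cells of T-ALL#1 and in 62.8% of those of T-ALL#2. Among its preleukemic DN3 cells the study found a γδ cluster with low Mki67. Its surface staining showed no rise of γδ thymocytes, and it proposes germline transcription of γδ segments. How many of the gated cells belong to the γδ lineage was not tested.

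Trac, the constant region of the α chain, whose rearrangement follows the pre-T cell receptor, was at 13.8, 176 and 92.9 CPM (log2 change 3.44, SE 0.431, adjusted p = 0.0289) and had a UMI in 25 of 113, 82 of 104 and 122 of 151 cells. It stood in 7.55%, 48.0% and 37.7% of cells at 5000 UMIs per cell. The pairing of both transcripts in single cells differed between the leukemias: Trdc without Trac was seen in 85 preleukemic, 0 T-ALL#1 and 19 T-ALL#2 cells, and both together in 24, 1 and 93. Of 18 γδ-lineage genes 12 passed the filter on low counts. Of these 0 were called higher and 4 lower, with a median of -2.20, against 0.608% of all genes tested called lower. A gene high in preleukemic cells only can pass the filter through that group, so this count is a description. The 4 were Tcrg-C2 (808, 176 and 114 CPM), Tcrg-C4 (423, 98.4 and 67.3 CPM) and Trgv2 (197, 43.3 and 33.2 CPM), segments of the γ chain locus, and Rora, a nuclear receptor of innate-like lymphocytes (31.6, 1.19 and 1.32 CPM), which was not called at 10 cycling UMIs per 10000 (edgeR adjusted p = 0.106). Tcrg-C1, Tcrg-C2 and Tcrg-C4 are alike in sequence, so the division of reads among them is uncertain. Sox13, a factor of γδ cells, was at 19.6, 3.57 and 5.01 CPM without a call.

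**Figure D3:**
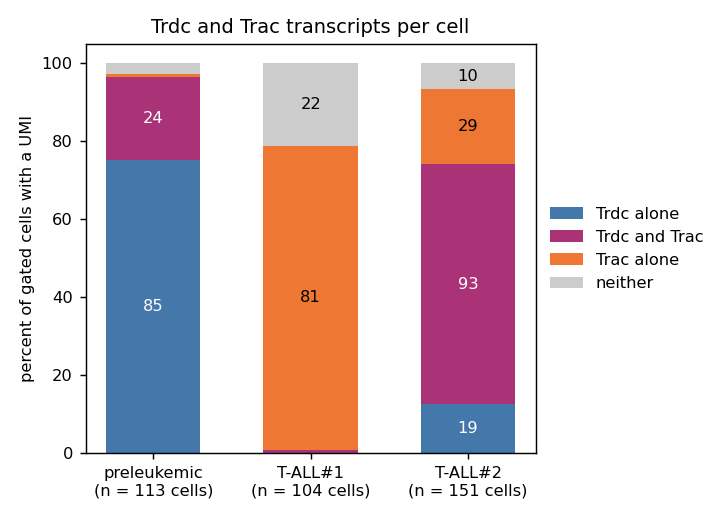
Percent of cycling DN3 cells of each library with a UMI of Trdc alone, Trdc and Trac, Trac alone, or neither; numbers in the bars are cells. Trdc alone fills most of the preleukemic bar (85 cells), Trac alone that of T-ALL#1 (81 cells), and both together that of T-ALL#2 (93 cells).

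The β chain transcripts also differed. Trbc2 was at 2082, 2962 and 3047 CPM and had a UMI in every gated cell. Trbc1 was at 1760 CPM in preleukemic cells and 817 CPM in T-ALL#1, and had 0 UMIs in the 151 cells of T-ALL#2, which is at least 2224-fold below the preleukemic library. The constant regions Trbc1 and Trbc2 are alike in sequence, so counts of Trbc2 may hold reads of Trbc1. The 151 cells of T-ALL#2 gave 0 UMIs of Trbc1 beside 3047 CPM of Trbc2. Among β variable segments, Trbv19 and Trbv2 led in the preleukemic cells (33 and 30 of 77 UMIs), Trbv2 and Trbv19 in T-ALL#1 (94 and 59 of 171), and Trbv5 and Trbv26 in T-ALL#2 (30 and 21 of 55). These 3′ libraries cover variable segments thinly, and the counts do not give clones.

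Of 23 tested genes of the pre-T cell receptor and its proximal signaling, 0 were called in either direction (median 0.44). Ptcra was at 6.67, 80.2 and 14.2 CPM (adjusted p = 0.528), with T-ALL#1 far above both other libraries. Egr1, an immediate early gene of receptor signaling, stood at 8.89, 35.7 and 42.7 CPM (adjusted p = 0.0693), and Cd3d, Cd6 and Zap70 had fitted changes of 1.04, 1.16 and 1.00 without a call. Other immediate early genes were called higher: Fos at 6.67, 55.6 and 41.7 CPM (adjusted p = 0.0272) and Fosb at 4.00, 44.0 and 54.6 CPM (adjusted p = 0.0289). None of the 11 recombination genes was called (median -0.47). Rag1 was at 82.7, 42.1 and 15.6 CPM (adjusted p = 0.333), Rag2 at 5.33, 1.98 and 1.58 CPM and Dntt at 1108, 591 and 368 CPM, and Xrcc6, a subunit of Ku, at 277, 772 and 491 CPM.

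Of 22 tested factors of the T lineage and the double-positive stage, 2 were called higher, Trac and Ikzf3, and 0 lower (median 0.26). Of all genes tested 0.381% were called higher. Ikzf3, which encodes Aiolos, was at 9.78, 81.7 and 52.2 CPM (adjusted p = 0.0290). Bcl11b, the commitment factor, was at 589 and 455 CPM in the preleukemic and T-ALL#1 cells and at 129 CPM in T-ALL#2, while Tcf7 stood at 705, 517 and 414 CPM. Myb, a factor of immature cells, was at 502, 246 and 188 CPM (log2 change -1.03, adjusted p = 0.162).

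**Figure D4:**
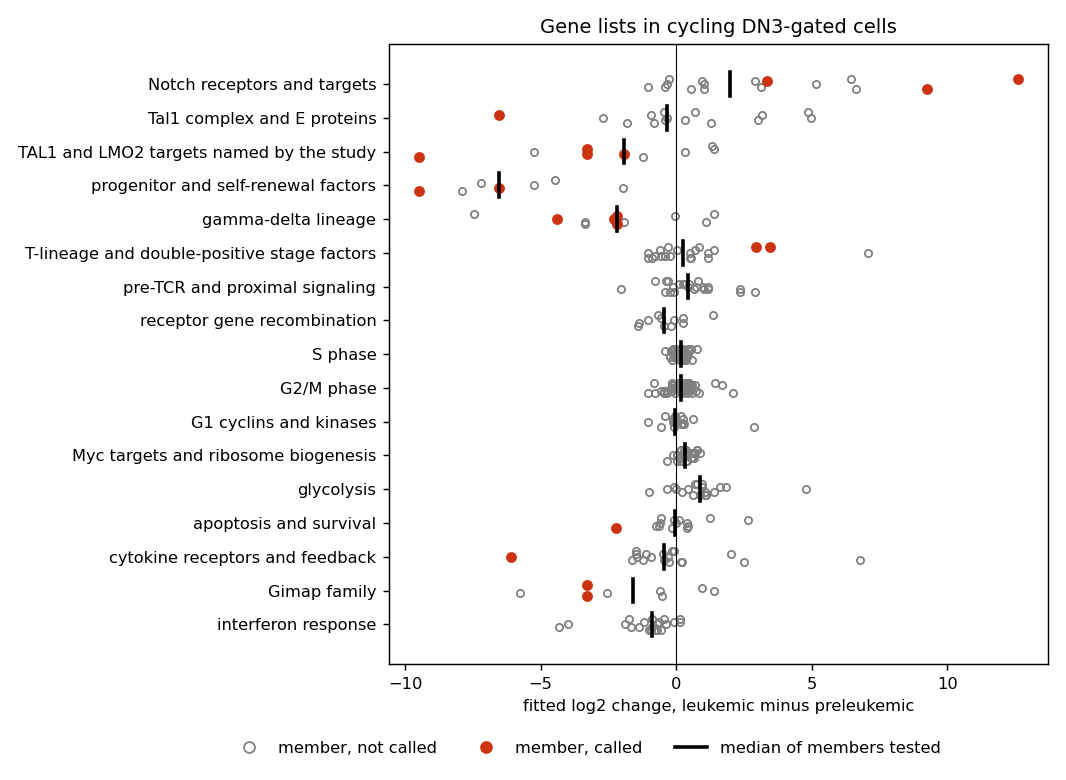
Fitted log2 change, leukemic minus preleukemic (horizontal), of each tested member of 17 gene lists (rows) in cycling DN3 cells; filled points passed edgeR's test, open points did not, and bars mark the median of the members tested. Filled points lie right of 0 in the rows of Notch targets and T-lineage factors and left of 0 in those of TAL1 and LMO2 targets, progenitor factors, γδ genes and Gimap genes, with 1 also left of 0 in the Tal1 complex, apoptosis and cytokine rows, and none stand in the S phase and G2/M rows.

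Cell cycle genes outside the gate held no called gene, in cells that were gated on division. Of 42 S phase and 54 G2/M genes outside the gate, 0 were called in either direction by edgeR (medians 0.16 and 0.19), which is near the share of all genes tested that were called (0.989%) and no result about these lists. Of all 9707 genes, 1165 had an unadjusted p under 0.05. The summed S phase genes were at 6673, 7011 and 5814 CPM and the G2/M genes at 7985, 8155 and 5496 CPM. Their ratio, G2/M over S, was 1.20 (1.17 to 1.22) in preleukemic, 1.16 (1.14 to 1.19) in T-ALL#1 and 0.945 (0.928 to 0.963) in T-ALL#2 cells, intervals of counting error only. T-ALL#2 was thus below the other two by more than counting error, and whether mice of a group differ as much could not be tested. Of 15 G1 cyclins and kinases none was called (median -0.03). Cdk6, the DN3 partner of D cyclins, was at 393, 188 and 146 CPM (log2 change -1.05, adjusted p = 0.144), and Ccnd3, the cyclin of pre-T cell receptor expansion, at 306, 405 and 117 CPM. Ccnd2 was at 19.1, 7.94 and 27.4 CPM, and Ccnd1 at 4.00, 7.54 and 39.8 CPM, high in T-ALL#2 alone.

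Of 5 tested Cdk inhibitors none was called. Cdkn2a, which encodes p16 and p19Arf, had 2, 29 and 65 UMIs (0.889, 11.5 and 17.1 CPM, adjusted p = 0.0963), and Cdkn1a, which encodes p21, had 0, 22 and 12 UMIs (adjusted p = 0.220), so transcripts of both were found in the leukemic cells nearly alone. Cdkn1b, which encodes p27, was at 48.9, 52.8 and 36.4 CPM (adjusted p = 0.974). Among histones, Hist1h2ap fell, from 2779 CPM in preleukemic cells to 267 and 146 CPM in the leukemias (log2 change -3.59, SE 0.380, adjusted p = 0.0243). It belongs to a family of near-identical genes whose transcripts mostly lack poly(A) tails, so its count is uncertain. Without the cells with a Trdc UMI the fitted change of Hist1h2ap was -0.90 (edgeR adjusted p = 0.430). H1f0, a linker histone of cells leaving the cycle, was at 2.22, 118 and 72.5 CPM (adjusted p = 0.0204) and had a UMI in 4 of 113, 69 of 104 and 92 of 151 cells.

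Genes of glycolysis lay mostly above 0 on the fitted log2 scale without passing the test. Of 19 members counted, 0 were called (median 0.88, with log2 ratios of CPM of 0.61 in T-ALL#1 and 0.53 in T-ALL#2), and 4 were past 2-fold higher in both leukemias. Pkm, pyruvate kinase, was at 391, 1305 and 1142 CPM (adjusted p = 0.0972) and Tpi1, triosephosphate isomerase, at 193, 587 and 462 CPM (adjusted p = 0.0764). Aldoa (ENSMUSG00000030695), fructose-bisphosphate aldolase, was left out of that count because 2 identifiers share the symbol, and was called higher at 135, 504 and 488 CPM (log2 change 2.08, SE 0.304, adjusted p = 0.0446). Slc16a3, the lactate exporter, had 1, 51 and 20 UMIs, and Slc16a1, its relative, was at 131, 77.4 and 40.9 CPM, neither called. Neither the 35 genes of oxidative phosphorylation (median 0.36) nor the 30 Myc targets and ribosome biogenesis genes (median 0.32) held a called gene.

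Of 14 tested genes of apoptosis and survival 1 was called, against 0.989% of all genes tested: Bcl2, which blocks mitochondrial apoptosis. It was at 115 CPM (102 to 130), 24.2 CPM (18.5 to 31.1) and 19.3 CPM (15.1 to 24.2), and was lower with a log2 change of -2.22 (SE 0.257, adjusted p = 0.0252). Bcl2 had a UMI in 60.2%, 35.6% and 34.4% of the cells. Its relatives Mcl1 (128, 118 and 106 CPM) and Bcl2l1 (16.9, 11.9 and 6.07 CPM) were not called, nor was Bax, which promotes apoptosis, at 142, 294 and 287 CPM (adjusted p = 0.132). Of 19 cytokine receptor and feedback genes 1 was called lower, against 0.608% of all genes tested. The called gene was Socs2, a suppressor of cytokine signaling, with 64, 0 and 2 UMIs (edgeR adjusted p = 0.0290). Il7r, the interleukin-7 receptor, was at 53.3, 65.5 and 16.1 CPM (adjusted p = 0.919), and Stat5a at 257, 119 and 34.8 CPM (adjusted p = 0.444).

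None of the 21 interferon response genes was called. Their median was -0.89 and 7 were past 2-fold lower in both leukemias, against 6.33% of all genes tested. Among the 7 were Ifit1 with 21, 1 and 2 UMIs and Irf9 at 21.8, 6.75 and 5.28 CPM. With genes at 0 held at 3 UMIs, the median log2 ratio of CPM was -0.49 in T-ALL#1 against -1.85 in T-ALL#2. None of the 9 quiescence factors that the study names was called (median 0.33), nor any of 22 quiescence and antiproliferative genes (median 0.02). Klf2, which restrains T cell division, came nearest, with 27, 127 and 193 UMIs (adjusted p = 0.0503), while Txnip, a growth-restraining arrestin, was at 68.9, 18.3 and 19.5 CPM (adjusted p = 0.0711). The 12 tested genes of class I antigen presentation (median 0.19), the 12 migration receptors (median -0.73), the 5 Ly6 genes (median 0.05) and the 5 effector cytokines (median 1.40) held no called gene. Iltifb and Il22, paired genes of interleukin-22 that are alike in sequence, had 0 preleukemic UMIs, 73 and 26 in T-ALL#1, and 32 and 9 in T-ALL#2.

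Beyond these lists, the genes of at least 100 CPM with the largest same-direction ratios were named by rule. Among the higher ones, Rgs10, a brake of G protein signaling, rose from 42.2 CPM to 436 and 253 CPM (log2 change 3.19, SE 0.374, adjusted p = 0.0258). Wdr25 rose from 20.0 CPM to 135 and 105 CPM and Agfg1 from 101 CPM to 384 and 337 CPM. The others of the 12 did not pass: Prmt7, an arginine methyltransferase, was at 85.8, 336 and 417 CPM (adjusted p = 0.0503), Mbnl2, a splicing regulator, at 36.5, 100 and 121 CPM, Acaa2, of fatty acid oxidation, at 82.2, 206 and 247 CPM, Tk1, thymidine kinase, at 62.7, 136 and 132 CPM, and Endou at 188, 474 and 386 CPM.

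Among the lower ones, Mcub, a subunit that dampens mitochondrial calcium uptake, fell from 140 CPM to 10.3 and 6.33 CPM (log2 change -3.91, SE 0.302, adjusted p = 0.0157). Dqx1 fell from 204 CPM to 28.2 and 26.9 CPM and Mta3, a chromatin remodeling subunit, from 296 CPM to 54.8 and 29.5 CPM. Without the cells with a Trdc UMI the fitted change of Dqx1 was -0.09 (edgeR adjusted p = 0.989, from -2.69). S100a10 and its partner Anxa2, which form a complex at the membrane, were at 234, 5.16 and 0 CPM and at 136, 6.35 and 23.5 CPM without a call (adjusted p = 0.102 and 0.269), as was Nebl at 106, 14.3 and 1.32 CPM. Gpr34, a lysophosphatidylserine receptor, and Mdga1 were called with 195 and 100 UMIs in preleukemic cells and 0 in either leukemia, at least 72.8-fold and 37.3-fold lower in T-ALL#1. These were chosen after their values were seen.

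The leukemias rarely went opposite ways. At 2-fold or more beyond counting intervals, 9 genes (0.0927%) were higher in one and lower in the other. Of genes of at least 100 CPM, those with the largest opposite ratios were named by rule. Cdk1, the mitotic kinase, was at 117, 181 and 65.4 CPM, Wdr89 at 331, 485 and 145 CPM, Ptpn7, a lymphocyte phosphatase, at 103, 149 and 74.7 CPM and Rpl10-ps3, a ribosomal pseudogene whose reads may come from other copies, at 180, 244 and 97.1 CPM. Smim4 (104, 64.3 and 163 CPM) and Cenpv (119, 71.4 and 179 CPM) had the reverse order. None of the 6 was called, and no ratio exceeded 2.28-fold.

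The low-cycling cells of the same gate (under 3 per 10000) numbered 242, 44 and 77 and had median depths of 7886, 11419 and 15739 UMIs. A fit of both states with the library as a block asked which genes differed between leukemic and preleukemic cells by another amount in cycling than in low-cycling cells. It found 6 of 10195 genes (0.0589%), with 468 at an unadjusted p under 0.05, and 0 genes when the library was not a block. The difference between the states themselves was set by the gate and was not tested.

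Cpa3 carried the largest of these. Its CPM in the preleukemic, T-ALL#1 and T-ALL#2 libraries were 433, 0.794 and 0.264 in cycling and 1384, 98.1 and 0 in low-cycling cells, an interaction of -4.54 (SE 0.630, edgeR adjusted p = 6.30e-09) that rests on 49 UMIs in the 44 low-cycling cells of T-ALL#1. Trbc1 (interaction -1.40, adjusted p = 7.30e-04) had 817 CPM in cycling and 1835 CPM in low-cycling cells of T-ALL#1, with 0 and 1 UMIs in T-ALL#2. The other genes had interactions above 0: Arhgap19 at 2.92, Cmc2 at 1.91, Slfn2, a Schlafen gene of T cell quiescence, at 1.84, and Malat1, a nuclear noncoding RNA, at 0.65. In low-cycling cells alone, 462 of 8845 genes were called (5.22%). The median prior of that fit was also infinite, so its count cannot be set beside the 96 calls in cycling cells. Hes1 was at 8.99, 184 and 146 CPM in low-cycling cells (interaction -1.16, SE 0.528), Lyl1 at 63.8, 0 and 0.805 CPM, Trac at 36.4, 449 and 141 CPM, and Bcl2 at 156, 38.1 and 12.9 CPM (interaction 0.31, SE 0.426), and none of these 4 interactions passed the test. A p that misses the threshold does not show that the changes were equal.

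**Figure D5:**
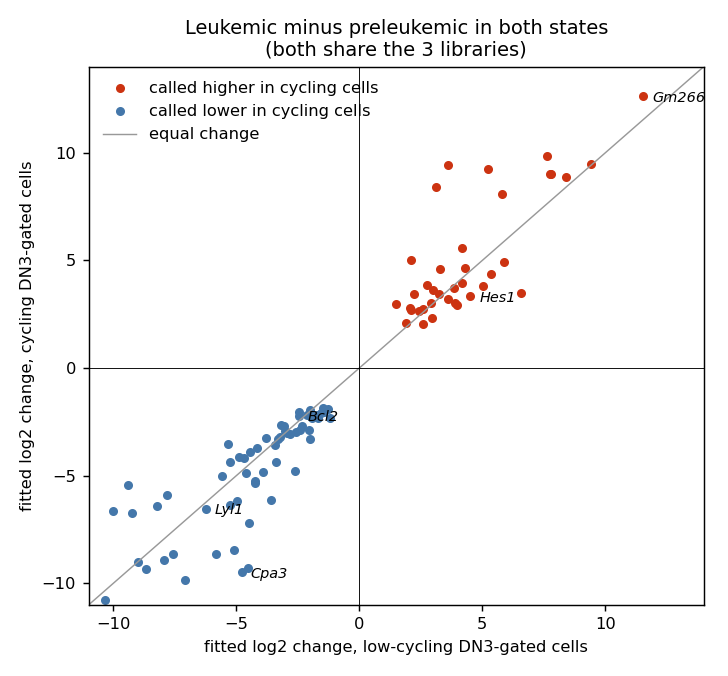
Fitted log2 change, leukemic minus preleukemic, in low-cycling (horizontal) and cycling (vertical) DN3 cells for the 96 genes called in cycling cells, with the line of equal change; both fits use cells of the same 3 mice. Cpa3 lies below the line (-9.49 in cycling against -4.79 in low-cycling cells), and Gm266 near it.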

How the data were processed

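Thymus cells were viable singlets sorted after red cell lysis, and 10x 3′ libraries were sequenced on a HiSeq. The authors deposited UMI counts per gene and barcode, aligned to mm10 per the labels and made with Cell Ranger 3.0.2 (T-ALL#2 with Cell Ranger 4, per the file headers). The labels name more than 1 chemistry version, and which library used which is not given in the sources used here. The T-ALL#2 matrix held 1791965 barcodes, and cells were those above 1/10 of the 99th percentile of UMIs of the 10000 largest (3416 UMIs).

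Cells with more than 500 genes and under 10% mitochondrial UMIs were kept. No doublet caller was run, and an upper limit on genes (mean plus 3 SD) was an alternative. Raw counts were summed over gated cells per library and tested with edgeR 4.0.16 (filterByExpr, TMM, quasi-likelihood, R 4.3.3), with DESeq2 1.42.0 as an alternative. CPM are UMIs per 1000000 of the summed counts, with exact 95% Poisson intervals that cover counting error only. A gene at 0 was held at 3 UMIs per library for fold bounds. Only the main edgeR test was run on simulated sums, and the interaction fit and DESeq2 were not. Each gated cell had a median of 19762 to 25512 UMIs. The low-cycling comparison was 1 fit of both states with the library as block, pairing sums of the same mouse.

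The cells, gene lists and tests were chosen with earlier results of these data known. Named genes were those of 100 CPM or more with the largest ratios shared by both leukemias (12 in each direction), 6 with opposite ratios, the extremes of each list and its defining members, and the genes past the interaction test. Any other named gene was chosen after its values were seen. Of 31053 gene identifiers, 31011 matched GENCODE M21, the source of coordinates. Genes whose symbol is held by more than 1 identifier (71) were kept out of list counts, which were made in Python 3.11.15. Alternatives were other filters, scalings, thresholds, depths and cell subsets. Some genes, and the results of 1 cell subset that rested on such a gene, are not reported here.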

Additional observations from a re-analysis of the deposited data

Results flagged for a closer look

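For 6 genes the leukemic minus preleukemic difference was not the same in cycling and low-cycling DN3 cells by the interaction test of edgeR, each with values in the preleukemic, T-ALL#1 and T-ALL#2 libraries. The calls rest on the library as a block, without which 0 genes passed. The blocked fit had an infinite median prior on the spread of genes, so its p-values are uncertain. Cpa3 had an interaction of -4.54 on the log2 scale (adjusted p = 6.30e-09), and Trbc1 one of -1.40 (adjusted p = 7.30e-04) with 1760, 817 and 0 CPM in cycling and 1581, 1835 and 0.805 CPM in low-cycling cells. Cmc2, a mitochondrial assembly factor, had 1.91 (adjusted p = 0.00376), with 405, 155 and 164 UMIs in cycling and 534, 6 and 24 UMIs in low-cycling cells. Arhgap19 had 2.92 (adjusted p = 0.0358), with 50.7, 11.5 and 6.07 CPM against 127, 4.01 and 1.61 CPM.

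Slfn2 had 1.84 (adjusted p = 0.0358), with 16.9, 61.5 and 41.2 CPM in cycling and 83.7, 114 and 36.2 CPM in low-cycling cells, so T-ALL#2 lay above the preleukemic library in cycling and below it in low-cycling cells. Malat1 had 0.65 (adjusted p = 0.00189), with 6766, 6801 and 5360 CPM against 23689, 17112 and 9181 CPM. Cycling and low-cycling cells also differed in depth, with median UMIs of 19762, 24750 and 25512 against 7886, 11419 and 15739, and the part of depth in these differences was not tested.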

How the results depend on the processing

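The 96 calls became 683 with all genes of at least 1 UMI, 520 with library totals alone, 155 with cycling genes at 10 per 10000, 235 with cells thinned to 5000 UMIs and 16 without cells with a UMI of Trdc (4 preleukemic cells left). The median prior degrees of freedom on the spread of genes also moved. They were infinite in the settings with 683, 520 and 235 calls, and 5.25 in the main fit. At 10 per 10000 they were 8.29, and without Trdc cells 19.9. The cause of the changes in calls was not tested. Of the 96, 6 remained without Trdc cells and between 83 and 96 in the others, DESeq2 (140 calls) included. The 903 genes past 2-fold became 413 at 4-fold, 436 after thinning and 341 without Trdc cells, and 1347 to 2110 when 1 leukemia was left out, which leaves 1 library a group and no test.

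The share of cycling DN3 cells in the preleukemic, T-ALL#1 and T-ALL#2 libraries was 1.27%, 1.40% and 4.71% at 10 per 10000, 1.36%, 1.20% and 6.38% with 2 Il2ra UMIs, 2.51%, 3.76% and 15.5% with no condition on Cd8b1, and 4.07% and 14.2% in the leukemias at 3000 UMIs. The ratio of G2/M to S phase genes was 1.30, 1.24 and 1.05 at 10 per 10000, 1.28 and 1.07 in preleukemic and T-ALL#2 cells without Trdc cells, and 1.08 in T-ALL#1 after thinning. Lists with a median above 0 went from 14 to 9 with library totals and to 7 with means over cells. No called log2 change of a gene named by rule changed sign, whereas uncalled ones did. Of all named genes, called ones included, 20 of 106 changed sign without Trdc cells and 12 of 108 after thinning. These counts were 11 of 131 when either leukemia was left out and 10 of 113 with means over cells. With library totals 8 of 131 changed sign, and at 10 per 10000 it was 2 of 124.

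No paired analysis was possible because the main comparison has 1 preleukemic library. In the comparison of cycling with low-cycling cells, which blocks on the library, the 6 genes became 0 with no replicate block and 10 at 10 per 10000. With 1 mouse a group at the preleukemic stage, differences between mice, ages and stages cannot be told apart.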
